A study of Mus musculus with 17 samples.

Results

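The genes examined here encode the proteins of the cytosolic ribosome. They were taken by symbol: Rps or Rpl followed by a number and at most a single suffix letter and further digits, plus Rpsa, Rplp0, Rplp1 and Rplp2, leaving out rows named as pseudogenes with "-ps". This gave 89 of the 25198 genes in the count table. By role they were 31 small subunit genes, 43 large subunit genes, 3 genes of the stalk (Rplp0, Rplp1 and Rplp2), 6 coding paralogs (Rpl3l, Rpl10l, Rpl22l1, Rpl39l, Rps27l and Rpl7l1) and 6 rows that GENCODE M21 annotates as pseudogenes (Rps3a2, Rps3a3, Rps4l, Rpl6l, Rpl32l and Rps12l1). The small subunit, large subunit and stalk genes, 77 in all, are called the core genes below. Fau, Rack1 and Rpl36al also belong to or bind the ribosome but fall outside the naming rule.

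The samples were mouse ovarian follicles grown in culture to the antral stage (encapsulated in vitro follicle growth, eIVFG). Follicles came from 16-day-old CD1 mice, an outbred stock, and were grown for 8 days, and each sample pooled 3 follicles. There were 11 Control libraries, 6 in batch 1 and 5 in batch 2, and 6 libraries labelled Tyrphostin, 3 in each batch. The labels give the same treatment sentence for every sample, 4 hours with human chorionic gonadotropin (hCG) and 10 µM Tyrphostin-AG1478 dissolved in DMSO, so the groups rest on the separate treatment label, and whether Control follicles received hCG or DMSO is not stated there. Tyrphostin-AG1478 is an inhibitor of the epidermal growth factor receptor kinase, and hCG stands in for luteinizing hormone. The labels do not say which samples came from separate animals, so p-values measure the spread between these samples, which may in part be technical.

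Ribosomal proteins assemble with ribosomal RNA into a small subunit, which reads the messenger RNA, and a large subunit, which joins amino acids. The acidic stalk proteins of the large subunit recruit the elongation factors. Ribosomal protein messages belong to the TOP mRNAs, which begin at a C followed by a run of pyrimidines. The mTOR kinase controls the translation of TOP mRNAs through that run, and this control need not alter the amount of the message, which is what was counted here. In the follicle, luteinizing hormone acts on granulosa cells through epidermal growth factor-like ligands to bring about ovulation.

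The feature that the naming rule did not use was looked for first in the sequence at the transcription start, where the TOP run lies. RefSeq start windows (GRCm38.p6) were matched by symbol to 64 of the 89 genes, 57 of them core genes. A run was counted where a C was followed without a break by C or T, with at least 5 bases in all, beginning within 10 bases of the annotated start on the gene's strand. Of the 57 core genes 34 held such a run (59.6%), against 34.4% of all 27025 genes in the same reference table. The windows below, from 40 bases before to 15 bases after the start, show some of the genes, with the run in capitals. Most of those shown hold a run, so they do not show how common it is. Rpl13, Rpl26, Rpl27, Rps25, Rps15, Rpl5, Rpl11, Rpsa, Rpl24, Rps4x, Rpl10, Rps3a1 and Rpl7l1, named later, had no such run and are not shown. Rpl4 and Rplp0 are shown as abundant genes with no such run beginning in the span searched. Rpl4 has a pyrimidine run farther upstream in its window.
Rps6, chr4:86857353-86857407, minus strand: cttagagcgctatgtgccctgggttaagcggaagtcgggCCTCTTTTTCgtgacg
Rps27, chr3:90213634-90213688, minus strand: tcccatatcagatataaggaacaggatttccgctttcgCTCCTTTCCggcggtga
Rps2, chr17:24720023-24720077, plus strand: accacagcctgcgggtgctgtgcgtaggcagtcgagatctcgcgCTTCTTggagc
Rps10, chr17:27635230-27635284, minus strand: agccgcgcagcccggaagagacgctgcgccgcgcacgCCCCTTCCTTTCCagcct
Rpl18, chr7:45718031-45718085, plus strand: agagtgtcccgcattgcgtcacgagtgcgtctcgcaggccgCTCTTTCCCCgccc
Rpl13a, chr7:45128731-45128785, minus strand: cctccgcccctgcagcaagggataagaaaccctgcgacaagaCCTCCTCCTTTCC
Rpl39, chrX:37085208-37085262, minus strand: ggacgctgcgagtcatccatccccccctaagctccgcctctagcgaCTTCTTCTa
Rplp2, chr7:141447611-141447665, plus strand: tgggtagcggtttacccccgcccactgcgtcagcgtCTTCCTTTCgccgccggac
Rpl4, chr9:64173347-64173401, plus strand: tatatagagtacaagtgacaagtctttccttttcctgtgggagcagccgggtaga
Rplp0, chr5:115559427-115559481, plus strand: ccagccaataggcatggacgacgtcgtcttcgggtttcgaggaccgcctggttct

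In these windows the run begins 1 base before the annotated start in Rps6 and at the second base of the message in Rpl18, and it begins at the fifth base in Rps2. A match is a description of the letters and shows no use of the run, and a window without one says only that these letters are not within the searched bases.

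Library totals ran from 1820545 counts (Control 6) to 8291024 (Control 8), so 3 counts in a library correspond to between 0.362 and 1.65 CPM, the usual unit of counts relative to the library's total. CPM below are scaled by the trimmed mean of M values (TMM). Of 12 granulosa cell markers 10 were detected in every library, with a summed level of 72600 to 92100 CPM in Control and 66000 to 88400 CPM in Tyrphostin. That sum is mostly Inha and Inhba. Of the 10 tested granulosa markers 6 were called higher over all 17 libraries, against 4.35% of all genes tested. The median log2 fold change over the 10 was 1.04. Among the 6 was Cyp19a1, the aromatase gene, at 2.35 ± 0.22 (SE, edgeR adjusted p = 2.84e-07). The summed oocyte markers lay between 34.8 and 212 CPM in Control and between 35.4 and 406 CPM in Tyrphostin, those of theca and stroma between 267 and 2160 CPM and between 273 and 3090 CPM, and the haemoglobin genes Hbb-bs and Hbb-bt were at 0 throughout. The summed cumulus markers were 18700 to 61500 CPM in Control and 11300 to 24500 CPM in Tyrphostin. Of these 8 markers 6 were called lower, against 6.25% of all genes tested, with a median log2 fold change of -1.76 over the 8. The part of the cell mixture in the ribosomal protein values was not tested. In such bulk samples a changed number of cells of a type and changed marker messages per cell cannot be told apart. Control 7 stood apart: mitochondrial transcripts made up 0.1746% of its counts, while Control 8 to Control 11 of the same batch had 1.737% to 1.943%. Some results below that lean on Control 7 are given with and without it. Others, among them most values of single genes, are given only with it.

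Over all 17 libraries no ribosomal protein gene was called different between Tyrphostin and Control. Of the 89 genes 82 had enough counts to be tested, and 0 of these passed an adjusted p of 0.05 in edgeR's quasi-likelihood test with batch as a term, whereas 10.6% of the 9603 genes tested did, 4.35% higher and 6.25% lower. None of the 82 reached an unadjusted p of 0.05 either, against 23.7% of all genes, and DESeq2 and limma-voom also called 0. The lowest p of a member was 0.0861 (Rpl23a) and the lowest adjusted p was 0.29. The median log2 fold change was -0.03, beside 0 for all genes, with 26 values above 0 and 56 below. That split rested on single libraries: it was 7 above 0 with a median of -0.21 without Tyrphostin 1, and 66 above 0 with a median of 0.12 without Control 7. Counts scaled by library total alone put 65 above 0, with a median of 0.12 beside 0.15 for all genes.

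The intervals bound how large a difference these libraries leave room for. Of the 82 genes 72 had a 95% confidence interval within a log2 fold change of 1 on either side, and 10 had one that reached it. The median standard error was 0.26, close to that of all genes at 0.24. The 7 genes with too few counts for the test were Rps10, Rpl24, Rpl3l, Rpl10l, Rpl39l, Rpl6l and Rps12l1.

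**Figure D1:**
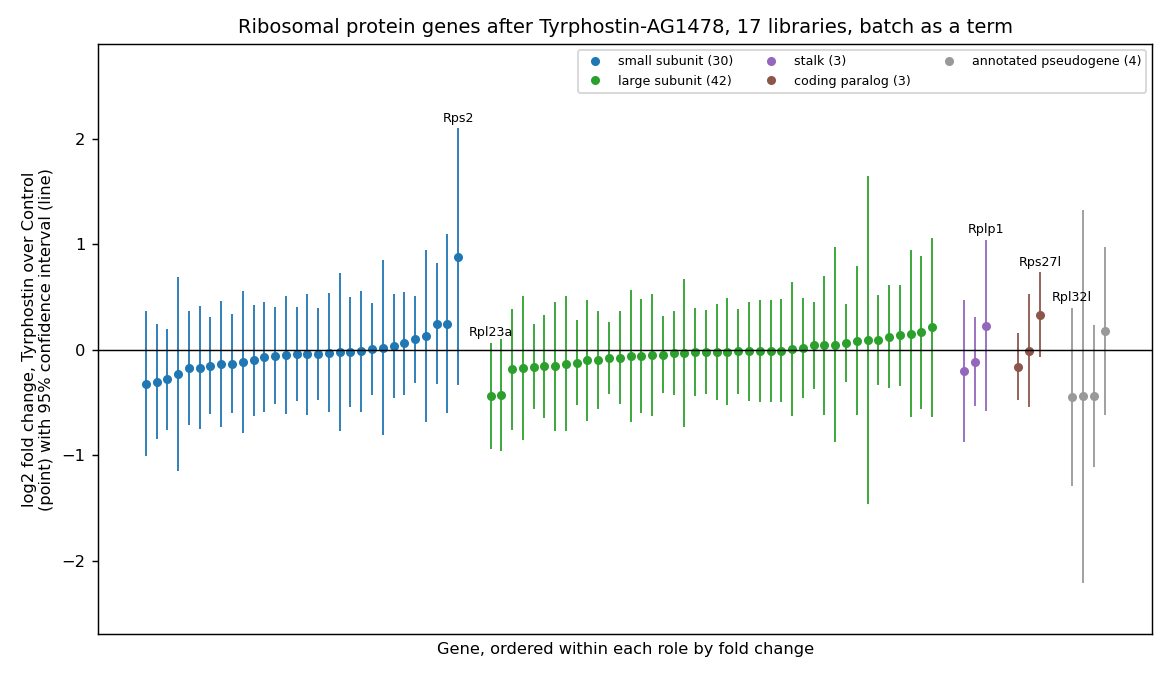
Log2 fold change of Tyrphostin over Control for the 82 tested genes (points) with 95% confidence intervals (lines), grouped by role and ordered within each. Every interval includes 0, and Rps2 at 0.88 has the highest value and one of the widest intervals.

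Among small subunit genes 30 of 31 were tested, with a median log2 fold change of -0.04, 9 values above 0 and 21 below. Rps6 is the subunit that S6 kinase phosphorylates downstream of mTOR. Control libraries of batch 1 held 183.9 to 304.2 CPM of Rps6 (median 254.2), and the Tyrphostin libraries 290.4, 353.8 and 225.7 CPM. In batch 2 its Control levels were 547.3 (Control 7), 228.9, 230.2, 206.8 and 193.6 CPM, and its Tyrphostin levels 218.5, 193.8 and 251 CPM. Apart from Control 7 the values of batch 2 lay in one range, and the log2 fold change was -0.04 ± 0.21 (SE, edgeR adjusted p = 0.941).

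Rps14, a protein of the platform of the small subunit, held 394.7 to 1002 CPM in Control of batch 1 (median 593.1), and 943, 809.1 and 361.7 CPM in Tyrphostin. In batch 2 the Control levels of Rps14 were 1171 (Control 7), 432.3, 483.8, 318.2 and 280.7 CPM, and the Tyrphostin levels 388.6, 388.1 and 328.4 CPM. Its log2 fold change was -0.14 ± 0.29 (SE, edgeR adjusted p = 0.834). The highest library of Rps14 was thus a Control library in each batch, Control 1 and Control 7.

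Rps2 had the highest log2 fold change of all members, 0.88 ± 0.57 (SE, n = 11 and 6), with a 95% interval of -0.34 to 2.10 (edgeR adjusted p = 0.385). Rps2, which lies at the mRNA entry of the small subunit, is annotated at chromosome 17, 24718116 to 24721929 (GRCm38). A sizable part of its transcript sequence is shared by each of 36 other annotated genes, so the split of its reads is uncertain. Genes that share less were not counted, here and for the genes below. Its values by library are given with the genes of wide spread further on. Rpsa, also known as a laminin-binding protein, had 0.25 ± 0.40 (SE), with groups that overlapped in each batch.

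Among large subunit genes 42 of 43 were tested, with a median log2 fold change of -0.02, 14 values above 0 and 28 below. Rpl4, whose long loop reaches into the exit tunnel, held 2081 to 2630 CPM in Control of batch 1 (median 2475), and 2994, 2216 and 2136 CPM in Tyrphostin. In batch 2 the Control levels of Rpl4 were 2794 (Control 7), 1930, 1591, 1569 and 1565 CPM, and the Tyrphostin levels 1584, 1496 and 1943 CPM. Its log2 fold change was -0.08 ± 0.16 (SE, edgeR adjusted p = 0.829), with a 95% interval of -0.42 to 0.26, one of the narrowest among the members. Rpl8, close to the peptidyl transferase centre, had -0.05 ± 0.18 (SE). Rpl5 and Rpl11, which with 5S ribosomal RNA can bind Mdm2 and so restrain the breakdown of p53, had -0.03 and -0.06.

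Rpl23a, at the exit of the peptide tunnel, had the lowest p of the members. Control libraries of batch 1 held 35.04 to 73.05 CPM of Rpl23a (median 46.72) and Tyrphostin libraries 55.52, 47.39 and 24.19 CPM. In batch 2 its Control levels were 85.57 (Control 7), 35.74, 39.52, 33.35 and 25.83 CPM, and its Tyrphostin levels 29.91, 20.75 and 31.71 CPM. The groups overlapped in both batches, and the log2 fold change was -0.44 ± 0.24 (SE, edgeR adjusted p = 0.290). Rpl27 had a like value, -0.43 ± 0.26 (SE, edgeR adjusted p = 0.328), which was -0.19 without Control 7. Exons of Tlcd1 overlap 55.4% of Rpl23a, and 19 other genes share a sizable part of its sequence.

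All 3 stalk genes were tested. Rplp0, the base of the stalk, held 2393 to 3483 CPM in Control of batch 1 (median 2750), and 3434, 3315 and 2484 CPM in Tyrphostin. In batch 2 the Control levels of Rplp0 were 5552 (Control 7), 2796, 2778, 2141 and 1975 CPM, and the Tyrphostin levels 2461, 2149 and 2551 CPM. Its log2 fold change was -0.12 ± 0.20 (SE, edgeR adjusted p = 0.794). The acidic partners Rplp1 and Rplp2 were far lower and more spread: Rplp1 stood at 70.62 CPM in Control 1 and 84.22 CPM in Tyrphostin 1, against 6.618 to 37.76 CPM in the other 15 libraries. The log2 fold changes were 0.23 ± 0.39 for Rplp1 and -0.20 ± 0.32 for Rplp2 (SE), and that of Rplp1 was -0.22 without Tyrphostin 1.

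Of the coding paralogs, 3 were tested. Rps27l, a p53 target in other cells, had the second highest log2 fold change of the members, 0.33 ± 0.19 (SE, edgeR adjusted p = 0.320), where its near twin Rps27 had 0.13. Rps27l ran from 33.94 to 93.97 CPM in the 11 Control libraries and from 53.46 to 101 CPM in the 6 Tyrphostin libraries, so the groups overlapped. Rpl22l1 and Rpl7l1 had -0.01 ± 0.26 and -0.16 ± 0.15 (SE), and Rpl22 itself had 0.06. Rpl3l, the muscle form of Rpl3, and Rpl10l and Rpl39l, forms known from testis, had at most 3 counts in any library, at the limit of what these libraries can show. The 4 annotated pseudogenes that were tested had a median of -0.44; they may hold reads of their parent genes, and the authors' handling of reads that match several genes is not given in the sources used here.

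The summed share of all counts in the 89 genes varied between libraries of the same group and batch. In batch 1 the Control libraries gave 1.672% to 2.509% (median 1.884%), and the Tyrphostin libraries 2.922%, 2.747% and 2.009%. In batch 2 the Control libraries gave 3.322% (Control 7), 1.908%, 1.565%, 1.699% and 1.389%, and the Tyrphostin libraries 1.657%, 1.727% and 1.858%. The mean share was 1.97% ± 0.31 (SD, n = 6) against 2.56% ± 0.48 (SD, n = 3) in batch 1, and 1.98% ± 0.78 (SD, n = 5) against 1.75% ± 0.10 (SD, n = 3) in batch 2. The difference of Tyrphostin minus Control was thus 0.591 percentage points in batch 1 and -0.229 in batch 2. Averaged over the batches it was 0.181 percentage points, smaller than the SD between Control libraries within batches (0.565). Without Control 7 the batch 2 difference was positive as well, since the other Control libraries had a lower mean share than Tyrphostin. The average over the batches was then 0.349 percentage points, larger than that SD without Control 7 (0.276). These SDs describe the spread of single libraries and are not the error of a difference of means. No test was made of the share.

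**Figure D2:**
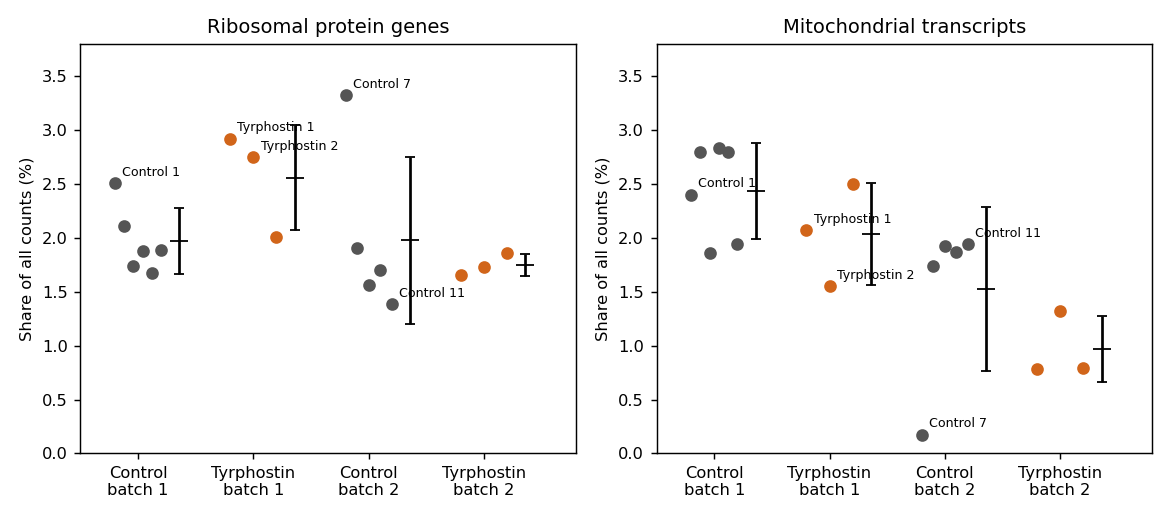
Share of each library's counts in the 89 ribosomal protein genes (left) and in mitochondrial transcripts (right), in percent, by group and batch; points are libraries, and bars give the mean and SD. Control 7 is the highest library on the left, at 3.322%, and the lowest on the right, at 0.1746%.

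The members varied together from library to library. Over the 61 members with an average log2 CPM of at least 5, the median correlation between 2 members, across the 17 libraries after removal of group and batch means, was 0.83, and 96.4% of pairs were positive. It was 0.03 over the 2638 genes at that level and 0.28 over 26 genes of ribosome assembly, and without Control 7 it was 0.73 for the members. These values are descriptions, since members share libraries and scaling. The leading principal axis took up 59.8% of the members' variance about the group and batch means. The members also spread more than other genes of like level, with a median residual SD of 0.51 on the log2 scale, against 0.36.

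The libraries at the top were few. Of the 82 tested genes 36 were highest in Control 7, 27 in Tyrphostin 1, 12 in Control 1 and 4 in Tyrphostin 2, that is 79 in these 4 libraries, and 40 were lowest in Control 11. Tyrphostin 1 was above the gene's mean in 80 of the 82 genes, Tyrphostin 2 in 79 and Control 1 in 78. Control 2 and Control 7 were above it in 76 each, and Control 4 in 68. With Control 7 set against Control 1, 43 genes were higher in Control 7 and 39 in Control 1. Rpl3, which shapes the peptidyl transferase centre, Rpl35 and Rps19 were higher in Control 7, by 1.45, 1.39 and 1.14 on the log2 scale, and Rpsa and Rplp1 were lower there, by -1.59 and -1.37. Transcript length had a Spearman correlation of 0.13 with this ratio over the 82 genes, given as a description.

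**Figure D3:**
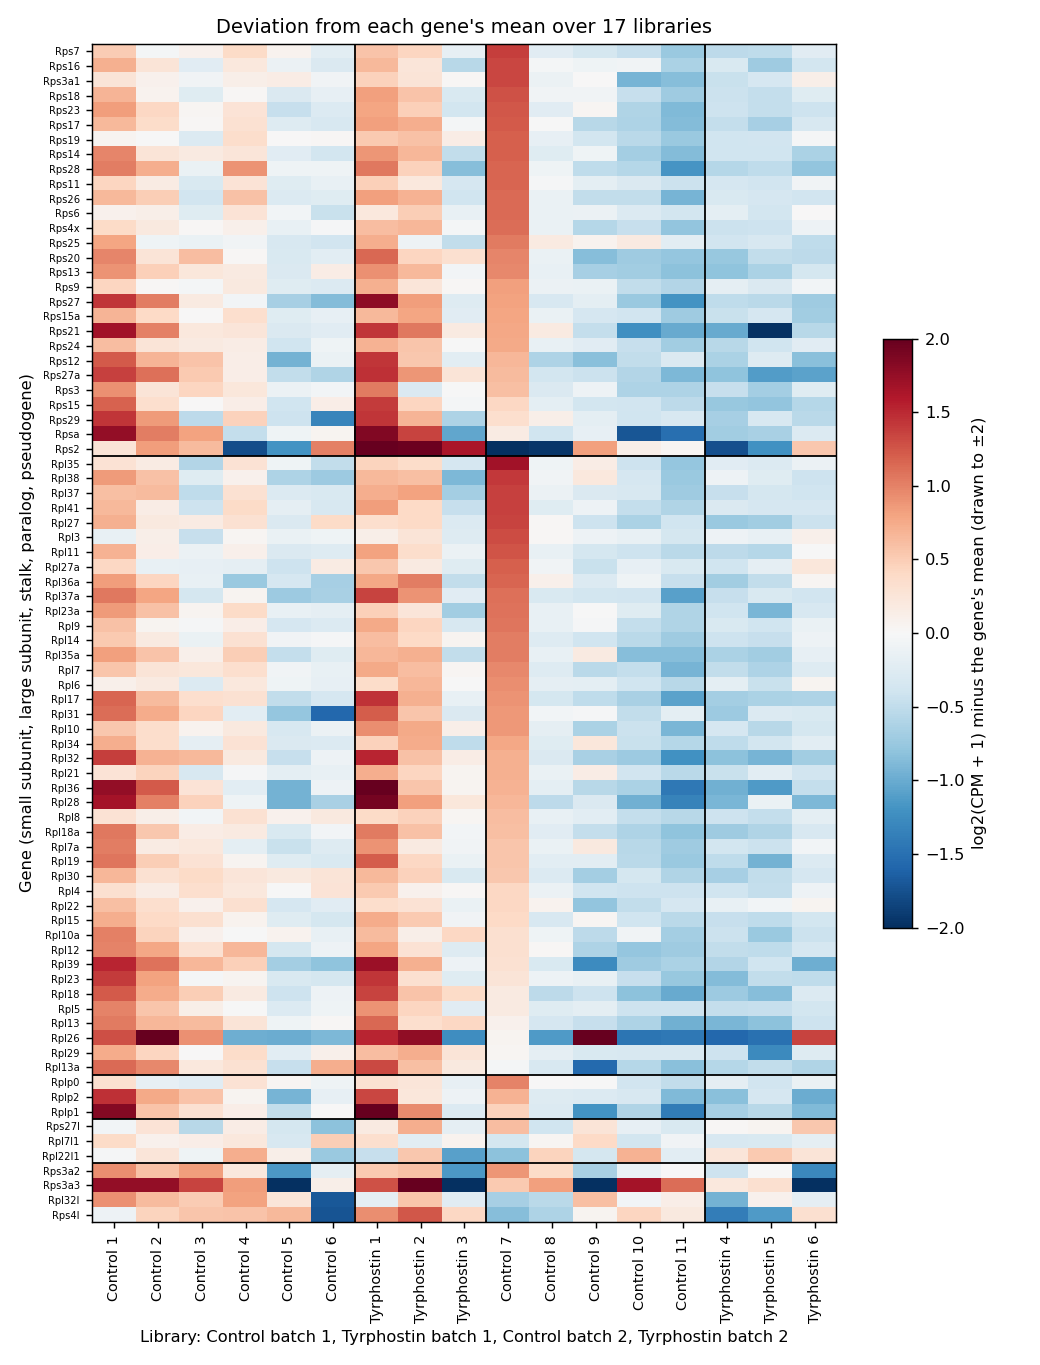
Each tested gene's log2(CPM + 1) minus its mean over the 17 libraries (red above, blue below, drawn to 2 on either side), with libraries as columns by group and batch and 80 of the 82 tested genes as rows by role. Control 1, Tyrphostin 1, Tyrphostin 2 and Control 7, and more weakly Control 2 and Control 4, are red over most rows. Rps2, Rpl26 and Rps3a3 break with the pattern of the others.

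Within batch 1, 73 of 83 tested members had a log2 fold change above 0, with a median of 0.27, and 1 was called, lower, against 6.73% of the 9423 genes tested (2.94% higher and 3.79% lower). That gene was Rps10, a protein of the small subunit's beak, which had -2.14 ± 0.61 (SE, n = 6 and 3, edgeR adjusted p = 0.0410). It passed the filter on low counts in batch 1 only through the Control libraries, and it was not among the genes tested over all 17. Its counts were very few, 8, 13, 9, 7, 10 and 12 in the Control libraries and 4, 2 and 6 in the Tyrphostin libraries. The call was lost without any one of Control 2, Control 3, Control 5, Control 6, Tyrphostin 1 or Tyrphostin 2, and with counts scaled by library total. Exons of other annotated genes cover 63.6% of Rps10 (chromosome 17, 27630418 to 27636669, GRCm38). limma-voom called Rps2 in place of Rps10. Rps2 had 1.74 ± 0.50 (SE, edgeR adjusted p = 0.0649). Of the 82 members tested over all 17 libraries, which leave out Rps10, Rps2 was the 1 whose groups did not overlap in batch 1, against 11.3% of the 9603 genes. The CPM of Rps10 did not overlap either, but Rps10 is outside those 9603 genes. As it passed the filter only through its Control libraries, this is no further support for a difference. The median of batch 1 was 0.01 without Tyrphostin 1 and 0.52 without Tyrphostin 3.

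Within batch 2, 77 of 81 tested members were below 0, with a median of -0.37, and 0 were called, against 0.621% of the 9830 genes tested (0.193% higher and 0.427% lower), and 2 had an unadjusted p under 0.05 (2.47%, against 10.7% of all genes). Without Control 7 the median was -0.03, with 29 above 0 and 51 below. Markers of theca and stroma had a median log2 fold change of -1.05 in batch 1 (7 of 8 below 0, 2 called lower) and 0.72 in batch 2 (8 of 8 above 0, 0 called), and those of the oocyte 0.01 and 0.96. The mitochondrial share of the Tyrphostin libraries of batch 2 was 0.7813%, 1.318% and 0.7972%, below Control 8 to Control 11 and above Control 7. The part of these in the batch values was not tested. Rps25 and Rps15 were the 2 members whose groups did not overlap in batch 2, against 9.30% of all genes; both were picked out after their values were seen. Rps25, an aid to some internal ribosome entry sites, held 119.2, 65.33, 60.37, 64.79 and 49.53 CPM in Control and 43.76, 45.82 and 40.1 CPM in Tyrphostin (log2 fold change -0.72 ± 0.28, SE, edgeR adjusted p = 0.354). Without Control 7 it was -0.47 ± 0.18 for Rps25 (SE, edgeR adjusted p = 0.221) and -0.36 ± 0.21 for Rps15 (SE, adjusted p = 0.448), where Rps15 had -0.56 ± 0.26 with it. In batch 1 the Rps25 groups overlapped, and no member was apart in the same direction in both batches, against 3.33% of genes.

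The difference between the batches was tested as an interaction of treatment and batch. It was below 0 in 79 of 82 members, with a median of -0.67, and 0 members passed an adjusted p of 0.05, against 0.00% of the 9603 genes. Rpl21 had the lowest p, with -0.79 ± 0.37 (SE, edgeR adjusted p = 1.00). The median was -0.29 without Control 7. The opposite signs in the batches were therefore not shown to differ for any single gene.

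**Figure D4:**
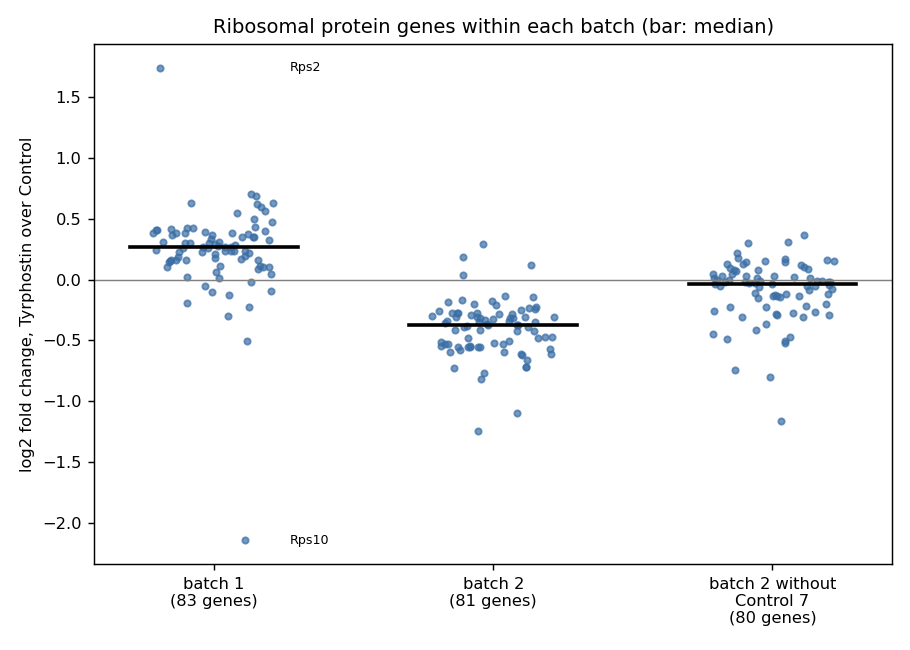
Log2 fold change of Tyrphostin over Control for each tested gene within batch 1, within batch 2, and within batch 2 without Control 7 (points), with the median as a bar. The medians are 0.27, -0.37 and -0.03.

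Control libraries of the batches were compared to show how far libraries of one treatment label differ. Batch 2 was lower in 53 of 75 tested members, with a median log2 difference of -0.21, and 3 members were called, all lower, against 14.0% of 6680 genes in either direction, 7.26% higher and 6.77% lower. Among them were the large subunit genes Rpl13, whose protein lies at the subunit's surface, at -0.87 ± 0.24, and Rpl18, at -0.90 ± 0.28 (SE, n = 6 and 5, edgeR adjusted p = 0.0233 and 0.0420). Rpl13 held 262.1 to 573.6 CPM in batch 1 (median 381.4) and 294 (Control 7), 220.3, 202.4, 180.8 and 143 CPM in batch 2, so the batches overlapped only through Control 7. Without Control 7, 15 of 75 members were called, all lower, against 14.9% of genes in either direction and 7.21% lower, and the median was -0.54. The count was 0 without any one of Control 2, Control 3, Control 10 or Control 11, and it was 1, Rpl13 alone, without Control 1 or Control 8.

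Rps2, Rpl26 and Rps3a3 had the widest spread of all members, with a residual SD of 1.26, 1.49 and 2.27 on the log2 scale, and they were singled out after their values were seen. Rps2 held 103.5, 154.6, 135.4, 24.65, 37.25 and 174.6 CPM in the 6 Control libraries of batch 1 and 434.3, 341.1 and 272 CPM in Tyrphostin. In batch 2 Rps2 held 17.06, 21.85, 153.8, 94.31 and 88.8 CPM in Control and 24.97, 36.93 and 125.7 CPM in Tyrphostin. Control 4, Control 5, Control 7, Control 8, Tyrphostin 4 and Tyrphostin 5 were all at or below 37.25 CPM, and the other 11 libraries at or above 88.8 CPM, so the low libraries came from both groups and both batches.

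Rpl26, a large subunit protein that also binds p53 mRNA, held 123.7, 241.6, 95.04, 24.94, 24.55 and 26.28 CPM in Control and 145.6, 172.3 and 20.49 CPM in Tyrphostin of batch 1. In batch 2 Rpl26 held 51.97, 22.07, 205.4, 17.44 and 17.93 CPM in Control and 16.19, 16.98 and 129.4 CPM in Tyrphostin. Of the 17 libraries 7 were at or above 95.04 CPM and the others at or below 51.97 CPM. Control libraries 1, 2 and 3, which the library names put in one set, were high, and Control libraries 4, 5 and 6, of the next set, were low.

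Rps3a3 is annotated as a processed pseudogene at chromosome 13, 108670603 to 108671397 (GRCm38), a copy of the small subunit gene Rps3a1. It stood between 1.366 and 3.475 CPM in 4 libraries (Control 5, Control 9, Tyrphostin 3 and Tyrphostin 6), and between 35.58 and 136 CPM in the other 13, with nothing in between. Rps3a1 held 235.6, 212.8, 216.2 and 230.5 CPM in those 4 libraries and 110.6 to 535.5 CPM in the others. The low values of Rps3a3 were not matched by its parent gene, and they came from both groups, 2 Control and 2 Tyrphostin libraries.

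**Figure D5:**
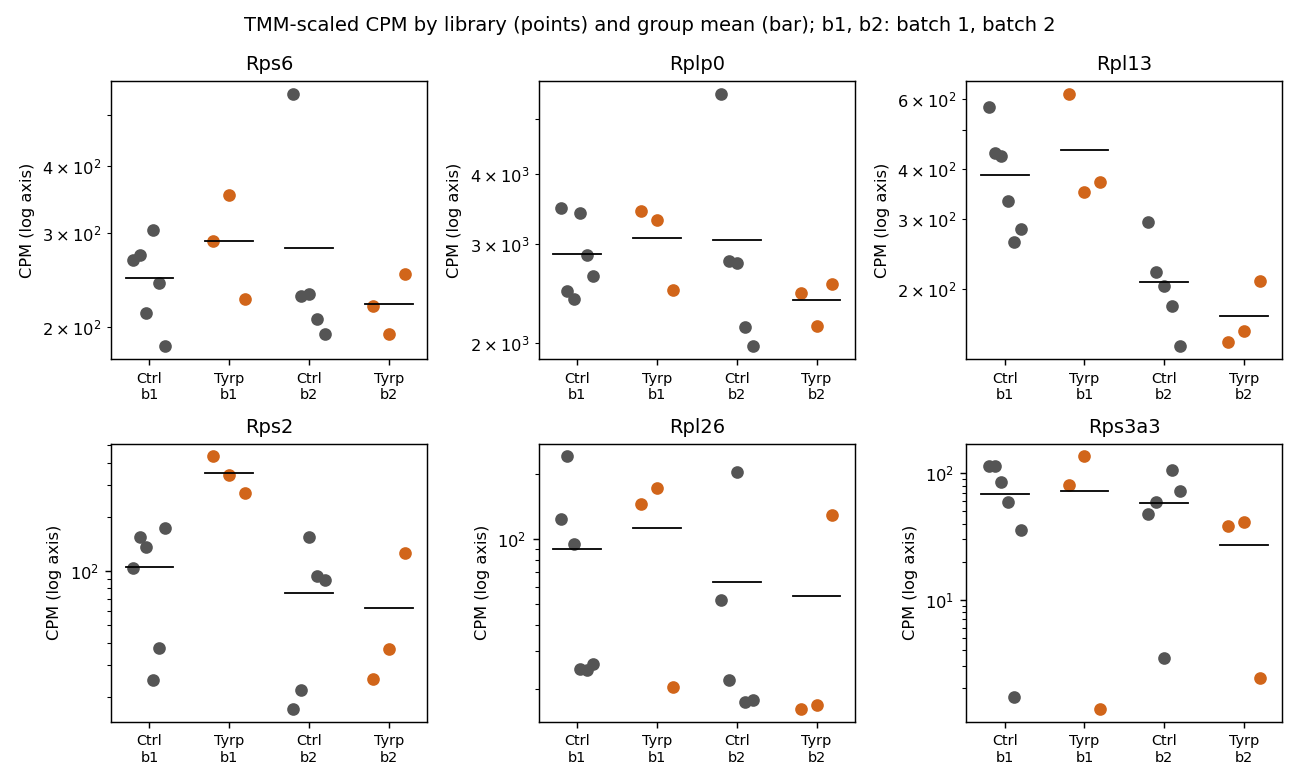
TMM-scaled CPM (log axis) of Rps6, Rplp0, Rpl13, Rps2, Rpl26 and Rps3a3 in each library (points) with the group mean (bar), for Control (Ctrl) and Tyrphostin (Tyrp) in batches 1 and 2 (b1, b2). Control 7 is the high Control point of batch 2 in Rps6 (547.3 CPM) and Rplp0 (5552 CPM), and 4 libraries of Rps3a3 lie under 3.475 CPM or at it.

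Levels of the core genes differed widely although their proteins are built into ribosomes in equal amounts, apart from the acidic stalk proteins. Per kilobase of the principal GENCODE transcript, mean CPM had a median of 145 over the 77 genes. Rplp0, Rpl8, Rpl4 and Rps14 were among the highest by this measure, at 2118, 1649, 1393 and 939.3 CPM per kilobase. At the bottom lay Rpl24, Rps10, Rpl13a and Rps12, at 0.717, 2.01, 2.24 and 7.42 CPM per kilobase. Exons of another annotated gene cover 71.5% of Rpl24 (Gm28037) and 59.3% of Rpl13a (Gm45713 and Mir5121), as with Rps10 above. Rps12 has no such overlap, but 23 other genes share a sizable part of its sequence.

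Core genes with over 50% of their length under another gene's exons, 5 in all, had a median of 2.24 CPM per kilobase and ranged from 0.717 to 106, with Rpl23a at 76.4 and Rpl35 the highest. The 8 with a smaller overlap had a median of 71.6, and the 64 with none had 178. The share of a transcript's 31-base words that occur in no other annotated gene had a Spearman correlation of 0.00 with the level, and transcript length one of 0.06, over the 77 genes, as descriptions. The table holds a further 305 rows named as ribosomal protein pseudogenes, 43 of them without a count in any library. Levels set against each other between genes therefore carry the authors' counting as well as the amount of message, and its part was not tested.

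Genes around the ribosome were described from lists chosen with earlier results of these data known. The 55 tested genes of ribosome assembly had a median log2 fold change of -0.41, with 51 below 0, and 13 fell after Tyrphostin while 0 rose, against 6.25% of all genes lower. Rcl1, which acts in 18S rRNA processing, had -1.05 ± 0.21, Utp4, of the small subunit processome, -0.83 ± 0.18, and Rrp9, of the U3 particle, -0.72 ± 0.18 (SE, edgeR adjusted p = 0.00155, 0.00314 and 0.0122). Rcl1 stood at 27.3 ± 8.4 CPM in Control and 13 ± 3.91 CPM in Tyrphostin (SD, n = 11 and 6). The count of lower assembly genes was 2 with counts scaled by library total, where the median of all genes was 0.15, and 4 with no batch term. It was 4 without Tyrphostin 2 or Tyrphostin 5, 7 without Tyrphostin 1 or Tyrphostin 4, and 8 without Tyrphostin 6. It was 3 within batch 1, against 3.79% of all genes lower there, and 0 within batch 2, against 0.427%. With so few genes called in batch 2, the count of 0 says little about this list. The median of these genes was -0.43 in batch 1 and -0.39 in batch 2, where the ribosomal protein genes had 0.27 and -0.37.

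Of 14 genes of RNA polymerase I, which makes ribosomal RNA, 1 fell, Cd3eap, and in all of the lists that follow the share of all genes lower is the 6.25% given above. Of 17 translation factors with TOP mRNAs 1 fell, the poly(A)-binding protein gene Pabpc1, at -0.75 ± 0.15 (SE, edgeR adjusted p = 0.00208), from 442 ± 70.3 to 262 ± 29.7 CPM (SD, n = 11 and 6). Of 21 genes of the mTOR and S6 kinase pathway 2 fell: Eif4e, the cap-binding protein, at -1.27 ± 0.22, and its inhibitor Eif4ebp1 at -0.85 ± 0.24 (SE, edgeR adjusted p = 0.000358 and 0.0251). Mtor itself had 0.35 ± 0.14 and Rps6kb1, an S6 kinase gene, 0.02 ± 0.14 (SE), and neither passed. Myc, an activator of ribosome genes, fell by 1.32 on the log2 scale (SE 0.28, edgeR adjusted p = 0.00323), and Mycn rose by 0.97 (SE 0.30, adjusted p = 0.0402). The Mycn call was lost without any one of Control 2, 3, 4, 5, 6 or 9 or Tyrphostin 1, 2, 3 or 6, and 1 mTOR pathway gene was lower without Tyrphostin 3 or Tyrphostin 6.

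Of 7 tested genes of p53 and ribosomal stress 2 rose, Ccng1 at 1.21 ± 0.20 and Sesn1 at 0.84 ± 0.24 (SE, edgeR adjusted p = 0.000328 and 0.0254), and 1 was higher without Tyrphostin 2, 3 or 6, beside 4.35% of all genes higher. The median of the 7 was -0.25 and 4 were below 0. These were Cdkn1a, a cell cycle inhibitor, at -0.55 ± 0.22, Trp53 at -0.31 ± 0.16, Sesn2 at -0.30 ± 0.16 and Mdm2 at -0.25 ± 0.14 (SE), none past the threshold. Mitochondrial ribosomal proteins, which build the separate ribosome of that organelle, had a median of 0.10 over 74 tested genes, with 1 higher (Mrps23) and 1 lower (Mrpl40). None of these was higher without Tyrphostin 1, 2, 3 or 5, none was lower without Tyrphostin 3, and 2 and 3 were higher without Control 6 and Control 7. Of the ribosome genes outside the naming rule, Fau had -0.17 ± 0.31, Rack1 -0.08 ± 0.21 and Rpl36al -0.57 ± 0.25 (SE, edgeR adjusted p = 0.797, 0.877 and 0.160).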

How the data were processed

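RNA from 17 samples was extracted with RNA-SPRI beads and made into Smart-Seq2 libraries, per the labels' protocols. Reads were mapped and counted with STAR and HTSeq on GRCm38, per the submitters' processing notes; versions, the strand setting and the annotation are not given in the sources used here. The deposited values are raw counts per gene in 1 table of 25198 genes, and all columns matched a sample. Smart-Seq2 reads carry no molecular identifiers, so the floor of 3 counts covers counting error only, while intervals of fold changes include the spread between libraries.

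The members and lists were chosen with earlier results of these data known. Counts were tested with edgeR 4.0.16 in R 4.3.3, with TMM scaling, filterByExpr and the robust quasi-likelihood test, on the whole table with Benjamini-Hochberg adjustment. Calls are at an adjusted p of 0.05. Over all 17 libraries treatment and batch were terms, with their product for the interaction. Within a batch the term was treatment, and between the Control batches it was batch. The filter asks for about 10 counts in about 6 libraries over all 17, and in about 3 within a batch. For the Control batches, taken as a single group, it asks this of about 11, so fewer genes were tested there. Standard errors are the log2 fold change divided by the root of F. DESeq2 1.42.0 and limma 3.58.1 (voom) were alternatives, and others changed the scaling, the filter and the batch term or left out each library. The code was tested on simulated data. No label says that replicate numbers pair the samples, so they were not a term. Named genes were the 5 highest and 5 lowest fold changes, the 5 highest levels per length, the 3 lowest p of the interaction and of the Control batch comparison, and a list of known roles; Rpl24, Rpl26, Rps10, Rpl13a, Rps12, Rps25, Rps3a1, Rpl35 and Rps19 were added after their values were seen. Single values of some genes that this rule names are not reported here, though the counts include those genes. Transcript lengths and exon overlaps came from GENCODE M21 and start windows from RefSeq GRCm38.p6.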

Additional observations from a re-analysis of the deposited data

Results flagged for a closer look

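For 40 measures (32 named members among them), 120 groups were searched in all. They were the 6 Control libraries of batch 1, the 5 of batch 2, and the 6 Tyrphostin libraries of both batches together. The gap of the highest or lowest library to its neighbour was judged by Dixon's 95% criterion. This singled out 24 values, where chance gives about 6, and since members vary together the flags are not independent. Control 7 accounts for 17 of them. Among the 5 Control libraries of batch 2 it had 3.322% of counts in ribosomal protein genes, against 1.389% to 1.908% in the others. Its share in small subunit genes was 1.359% and its mitochondrial share 0.1746%.

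The other 14 values of Control 7 were levels of single members, all the highest of their group. Small subunit genes were Rps14 at 1171 CPM, Rps6 at 547.3, Rps4x at 1158, Rps27a at 119.4 and Rps15 at 32.81 CPM. Large subunit genes were Rpl8 at 2091 CPM, Rpl3 at 1196, Rpl7 at 1227, Rpl10 at 949.1, Rpl11 at 350.9, Rpl27 at 160.9 and Rpl23a at 85.57 CPM. Stalk genes were Rplp0 at 5552 CPM and Rplp2 at 38.32 CPM.

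In batch 1, Control 1 stood above the other 5 Control libraries in Rplp1 (70.62 CPM), Rps14 (1002 CPM), Rpl11 (236.1 CPM) and Rps15 (56.88 CPM). Tyrphostin 1 stood above the other 5 Tyrphostin libraries, of both batches, in Rplp1 (84.22 CPM) and Rplp2 (60.69 CPM). Control 6 had the lowest total of batch 1, 1820545 counts, where Control 1 to Control 5 had 3807300 to 4834875.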

How the results depend on the processing

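The count of 0 members called over all 17 libraries held under each alternative tried except the replicate block, and when each of the 17 libraries was left out. With the replicate number as a block, on 12 libraries, 1 member was called, Rps2, at a log2 fold change of 1.40, and 624 genes in all against 1018. No label says that the numbers pair the samples. Same-numbered samples correlated at 0.32, 0.08, 0.05, 0.10, 0.03 and 0.11 in their deviations from the group means, and Tyrphostin 1 alone matched its own number best. Numbers 4, 5 and 6 join Control libraries of batch 1 to Tyrphostin libraries of batch 2. Low correlations cannot exclude a shared source of samples. Within batch 1 the block gave 1 call, Rps2.

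Scaling by library total gave 0 member calls in batch 1 and 1 between the Control batches. With no filter on low counts there were 2 calls in batch 1, 1 in the interaction and 8 between the Control batches. Leaving out 1 library gave 0 to 2 calls in batch 1 and 0 to 15 between the Control batches. The causes were not tested. The median log2 fold change of the members ran from -0.21 to 0.12 over the alternatives and over the libraries left out. Its sign thus differed between settings. The SD of 0.55 between Control libraries describes the members' median in single libraries and is not the error of a difference between groups. A range inside that SD therefore does not show that the median is stable. Of 34 named members 24 had a sign that differed from the main value under at least 1 of the alternatives, and 1 of 1088 values passed the threshold (Rps2, replicate block).

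Depth limits the lowest genes: 3 counts are 0.362 to 1.65 CPM, and Rpl24, Rps10, Rpl3l, Rpl10l and Rpl39l lie near that floor.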

Other observations

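The 5 sets that the Control library names show are not in the sample titles, and no label says what a set is. Besides Rpl26, the median deviation of the tested members from their mean over the libraries was 0.81, 0.42 and 0.09 on the log2 scale in Control 1, 2 and 3, and 0.21, -0.29 and -0.17 in Control 4, 5 and 6, within the same batch. In batch 2 it was 0.78 and -0.16 in Control 7 and 8, -0.28 in Control 9, and -0.46 and -0.70 in Control 10 and 11. In Tyrphostin it was 0.79, 0.55 and -0.16 in batch 1 and -0.47, -0.47 and -0.32 in batch 2.

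Rps3a2, another annotated pseudogene copy of Rps3a1, held 7.055, 10.42, 7.024 and 6.341 CPM in the 4 libraries where Rps3a3 was low, and 12.35 to 32.89 CPM in the other 13. Rps4l, an annotated pseudogene, was at 0.5474 CPM in Control 6, 0.9603 CPM in Tyrphostin 4 and 1.348 CPM in Tyrphostin 5, and between 1.837 and 11.19 CPM in the others. These values are given as they stand.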
